A study of Mus musculus with 354 samples.

Results

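The genes described here are the liver cytochromes Cyp2b9, Cyp2b10 and Cyp2b13, the nuclear receptors CAR (gene Nr1i3) and PXR (gene Nr1i2) that govern them, and Por, the reductase that passes electrons to microsomal cytochromes. They were chosen by name: every probe set annotated to 1 of the 6 symbols was taken. Of the 6 genes, 5 had a probe set under their symbol, 7 probe sets in all, out of 16670 genes with a probe set of 1 symbol and 14125 genes bright enough to be tested. Por is not analysed here.

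RNA came from the livers of 354 male mice of 45 inbred strains of the Collaborative Cross, which descend from a shared set of founders and serve for genetic mapping. In each strain, animals that had received tolvaptan, an oral blocker of the vasopressin V2 receptor, were set against Control animals, described as given vehicle, and livers were taken after 24 h. There were 175 Tolvaptan and 179 Control livers, with 4 animals in 85 of the 90 strain and treatment groups, 3 in 4 groups and 2 in 1 group, and 1 array per animal. All animals, Tolvaptan and Control alike, were about 8 to 10 weeks old, had some 7 days to acclimate and went without food for roughly 18 h before necropsy. The sample was a piece of the median lobe, so values are averages over all cells of the tissue, and fewer cells of a type and less RNA per cell cannot be told apart.

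CAR and PXR sense drugs and endogenous lipids. CAR waits in the cytoplasm of hepatocytes, enters the nucleus when activated, pairs there with the retinoid X receptor and binds direct repeats of the half-site AGGTCA and its variants. Cyp2b10 is its best known target in mouse liver and the usual readout of phenobarbital-type induction. Cyp2b9 and Cyp2b13 lie in the same gene cluster, but in mouse liver they are known as female-biased genes that the male pattern of growth hormone secretion holds low. PXR drives mainly Cyp3a genes and shares some targets with CAR.

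The 250 bases before the annotated transcript start are shown for the 3 Cyp2b genes, because 2 of them moved together over strains and the third did not. They are RefSeq sequences of the build GRCm38.p6 on the plus strand, at chr7:26173159-26173408 for Cyp2b9, chr7:26061245-26061494 for Cyp2b13 and chr7:25897408-25897657 for Cyp2b10. Capitals mark a match to AGGTCA, searched on both strands (TGACCT on the other). Sequences of the single strains were not used, and whether these windows bear on the levels over strains was not tested.
Cyp2b9: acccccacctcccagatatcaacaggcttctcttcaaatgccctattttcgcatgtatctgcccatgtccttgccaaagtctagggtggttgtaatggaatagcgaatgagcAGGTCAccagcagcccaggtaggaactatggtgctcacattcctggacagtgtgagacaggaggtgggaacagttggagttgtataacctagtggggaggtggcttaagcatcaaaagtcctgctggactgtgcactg
Cyp2b13: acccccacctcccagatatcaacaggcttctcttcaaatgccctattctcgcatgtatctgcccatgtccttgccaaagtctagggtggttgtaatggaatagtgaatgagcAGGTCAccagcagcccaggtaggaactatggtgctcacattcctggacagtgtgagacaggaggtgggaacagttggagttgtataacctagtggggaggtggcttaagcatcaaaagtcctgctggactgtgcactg
Cyp2b10: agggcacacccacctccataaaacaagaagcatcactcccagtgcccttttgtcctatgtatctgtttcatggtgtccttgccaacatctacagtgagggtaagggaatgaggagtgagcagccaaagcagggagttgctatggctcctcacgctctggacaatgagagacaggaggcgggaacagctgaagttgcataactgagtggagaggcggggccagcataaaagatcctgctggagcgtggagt

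The Cyp2b9 and Cyp2b13 windows were identical at 248 of 250 positions (99.2%). The 2 differences are T48C and C104T, with the Cyp2b9 base first and positions counted from 1 at the 5′ end. Each of the 2 windows held 1 AGGTCA match, at positions 113 to 118, and the Cyp2b10 window held 0. Of 32851 such windows in the table, 14.0% held a match on either strand. The best ungapped alignment of the Cyp2b10 window to either of the others matched 126 of 249 positions (50.6%). A match of 6 letters is a description and not a binding site, and the CAR-responsive enhancer known for Cyp2b10 lies further upstream than these windows reach.

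Levels are log2 RMA values, a normalized scale on which 1 unit is a 2-fold difference, and they are compared only within a probe set. Whether sequence differences between strains under the probes changed the signal was not tested. The median probe set of an array lay between 2.81 and 3.02, typically at 2.89, and a value below it is near the level of unlit probe sets. Hepatocyte markers were high on every array: the mean of the 9 markers tested ran from 11.2 to 12.1, and all 9 lay above the array median on all arrays. The mean of 13 markers of other cells ran from 3.88 to 5.39, with 6 of the 13 above the median on all arrays.

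Some arrays stood apart from their labels. Over 500 probe sets that separate the strains, with the genes reported here left out and treatment not used, 34 arrays correlated at no more than 0.33 with the remaining arrays labelled as their strain. The other 320 arrays reached 0.65 or more. These were 7 Tolvaptan and 27 Control arrays from 19 strains, and 22 of the 34 belonged to the scan date called scan 2. They are named below as arrays off their strain, and results are given with and without them. Of 6 scan dates, scan 1 held 1 animal of each treatment from every strain, and scan date was a term of the fit.

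Cyp2b10 varied more between strains than nearly any other gene. Its Control strain means spanned 8.52 log2 units (368-fold), which ranked 3 among 14125 genes, where the median gene spanned 1.05. In the 6 strains with the highest Control level the mean lay above 9, in 5 strains it lay under 4, and 34 strains lay between (bounds chosen after the values were seen). The highest was IL16513, with 11.46, 11.00, 12.31 and 11.16 in its 4 Control livers (11.48 ± 0.58, SD). Strain AU8048 followed with 12.01, 12.13, 11.93 and 9.75, and AU8052 with 11.29, 10.28 and 11.43. The lowest was OR5035, with Control values of 2.36, 2.85, 3.41 and 3.21 (2.96 ± 0.46, SD, n = 4). Strain AU8049 followed with 2.27, 2.50, 3.36 and 3.76, and OR5612 with 3.70, 2.82, 4.47 and 3.04. No liver of the 3 highest strains came near any of the 3 lowest, and none of these arrays was off its strain.

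The order between the extremes was less certain, since Cyp2b10 also varied within strains, with a median within-group SD of 1.48 over Control groups. The largest gap between neighbours in the order of Control means was 1.02, between AU8052 and OR3154. The SE of a difference between 2 strains of 4 animals was 1.1, and 0 of the 44 neighbouring pairs differed by more than that. In AU8033 the Control livers read 3.35, 3.03, 8.11 and 9.64, and the 2 low ones were arrays off their strain. Without the off-strain arrays the range was 8.91 (rank 4), the median SD within Control groups was 1.14, and strain accounted for 78.3% of the Control variance, against 58.0% with all arrays. The 2 Cyp2b10 probe sets correlated at 0.99 over the 354 arrays. Both carry the suffix that the manufacturer gives to probe sets able to bind more than 1 transcript, and the Cyp2b genes are close paralogues.

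**Figure D1:**
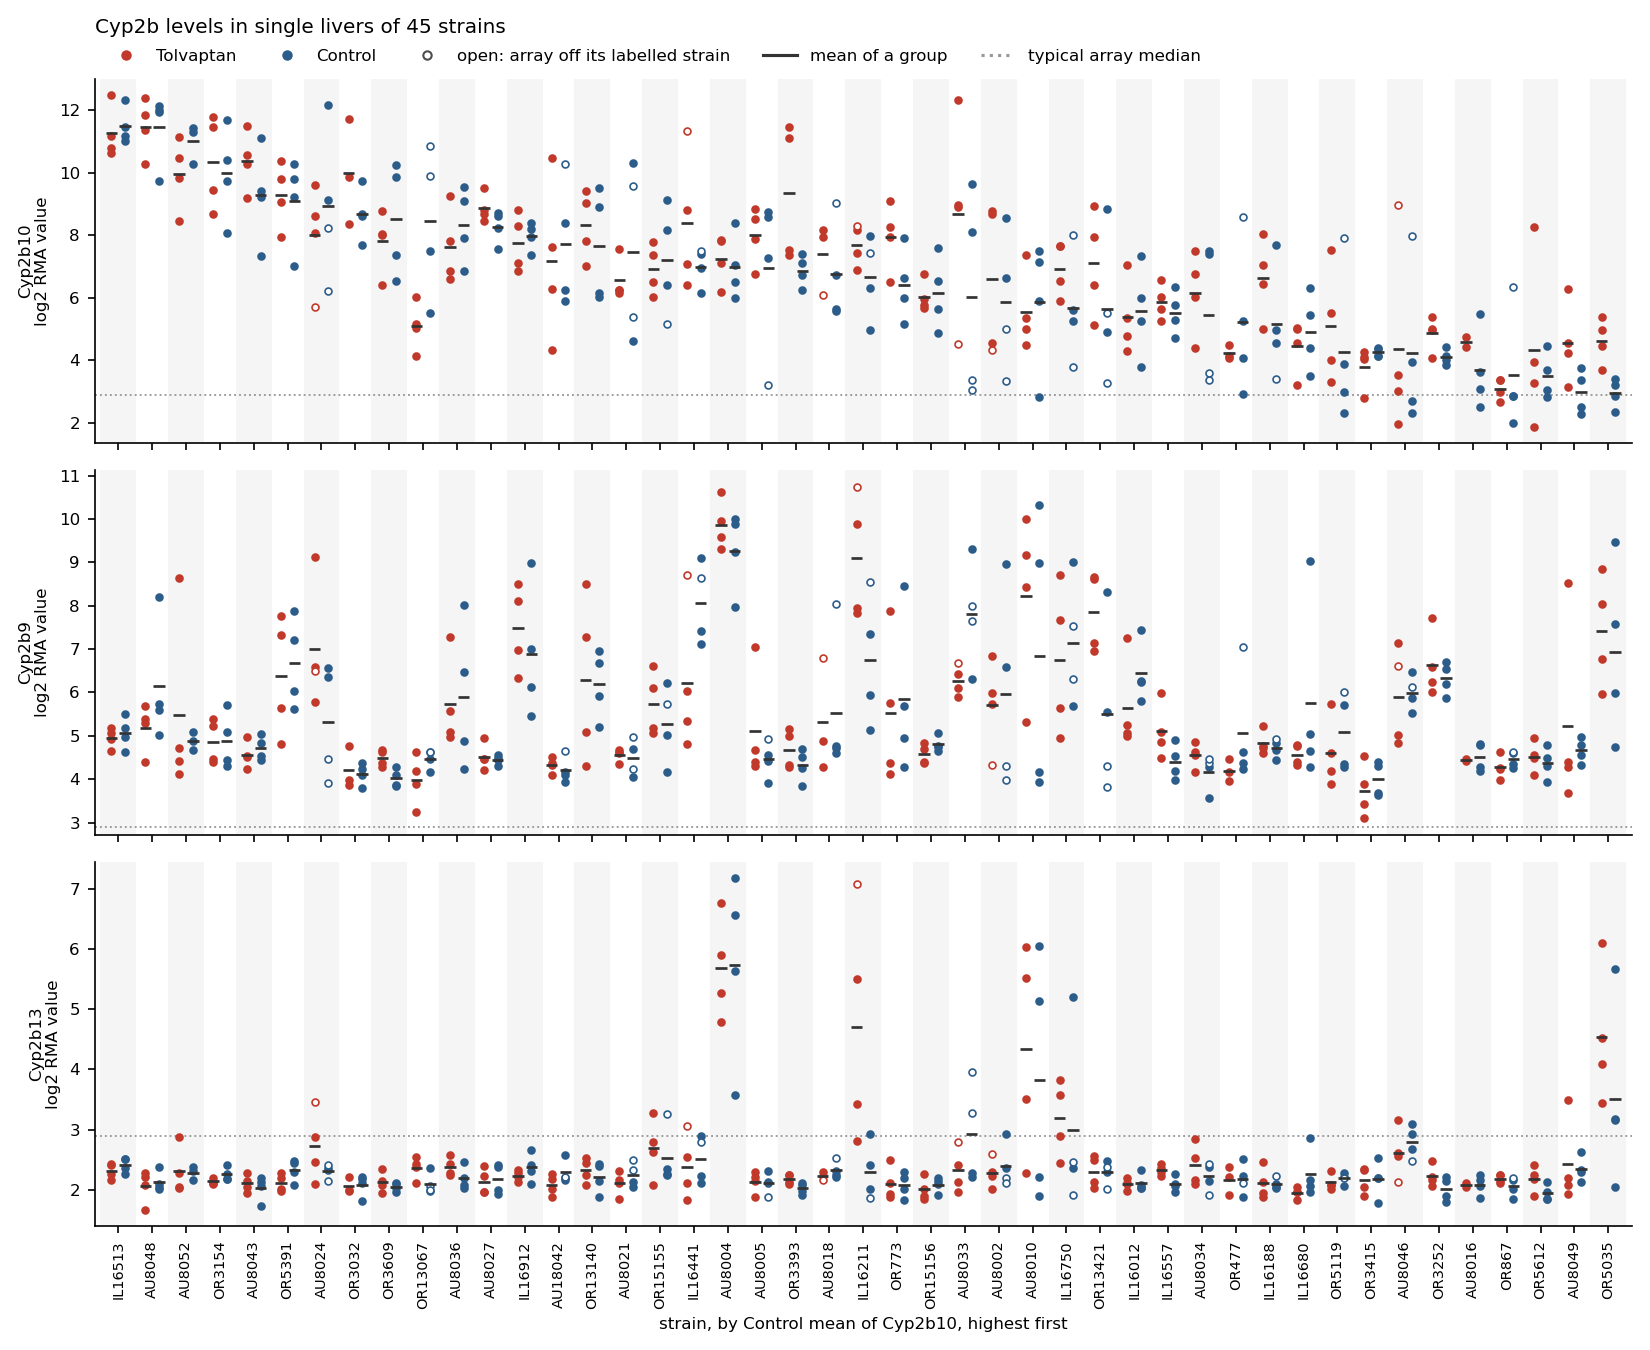
Log2 RMA values of Cyp2b10, Cyp2b9 and Cyp2b13 (top to bottom) in single livers of 45 strains, ordered by the Control mean of Cyp2b10; Tolvaptan animals stand left of Control animals, bars are group means, open points are arrays off their labelled strain and the dotted line is the typical array median of 2.89. Cyp2b10 descends from 11.48 in IL16513 to 2.96 in OR5035, the high points of Cyp2b9 lie in other strains, and Cyp2b13 leaves the array median in few strains.

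Cyp2b9, a steroid-metabolizing cytochrome expressed mainly in female mouse liver, spanned 5.27 log2 units between Control strain means (38.6-fold, rank 77), and 5.34 without the off-strain arrays (rank 97). Strain accounted for 45.7% of its Control variance. In 32 strains the Control mean was under 6, and in 13 it was 6 or above. AU8004 was highest, with 9.99, 9.88, 7.98 and 9.24 in Control livers (9.27 ± 0.92, SD, n = 4). IL16441 followed with 7.12, 9.11, 8.64 and 7.43, the third of these an array off its strain, and AU8033 with 8.00, 7.65, 9.31 and 6.31, of which the first and second were off their strain. OR3415 was lowest at 4.39, 3.69, 3.63 and 4.30, then OR3609 at 3.85, 3.87, 4.28 and 4.1, then OR3032 at 4.24, 3.81, 4.11 and 4.36. The gap of 1.2 between AU8004 and IL16441 was the widest between neighbours, and the only 1 of 44 above the SE of a difference, 0.78.

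Single livers of 1 strain could lie far apart in Cyp2b9. In AU8010 the Tolvaptan livers held 10.00, 9.17, 8.43 and 5.32, and the Control livers 10.31, 8.98, 4.16 and 3.93. None of these arrays was off its strain, and the Control SD of 3.28 was the largest of any strain for this gene. The animals of either treatment fell on both sides of a gap of several log2 units.

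Cyp2b13, the near copy of Cyp2b9 and also female-biased, was close to unlit in most livers. It lay above the array median in 39 of 354 animals, 21 Tolvaptan and 18 Control, from 12 strains. Its Control mean exceeded the typical array median in 5 of 45 strains. AU8004 led with 7.18, 6.56, 3.57 and 5.63 in Control livers (5.73 ± 1.57, SD, n = 4). AU8010 followed with 6.05, 5.13, 1.90 and 2.22, and OR5035 with 3.18, 5.67, 2.05 and 3.15. The lowest means, 1.95 in OR5612, 2.02 in OR3252 and 2.03 in OR3393, lie below the array median, where single strains have no reliable order. The span of the strain means was 3.78 log2 units (rank 240), and the gap of 1.91 between AU8004 and AU8010 was the only one of 44 above 2 SE of a difference (SE 0.38).

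Livers with a high Cyp2b13 value also had a high Cyp2b9 value. Whether the probe set of either gene also binds RNA of the other, its close paralogue, was not tested. The 15 animals with Cyp2b13 above 5, 8 Tolvaptan and 7 Control, came from AU8004, AU8010, IL16211, IL16750 and OR5035, and the lowest Cyp2b9 value among them was 8.85. Over the 39 animals with Cyp2b13 above the array median, Cyp2b9 had a median of 8.70, and over the other 315 animals it had a median of 4.76. The converse did not hold, since animals without Cyp2b13 above the median reached 9.31 in Cyp2b9. The deviations of single animals from the mean of their strain and treatment correlated at 0.51 between the 2 genes over 354 arrays, and at 0.56 over the 320 on their strain, given as a description.

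Over the 45 Control strain means, Cyp2b9 and Cyp2b13 correlated at Pearson r = 0.69 and Spearman rho = 0.64. Both had a two-sided permutation p of 1e-05, the smallest that 100000 permutations can give, and 0.0001 after Benjamini-Hochberg adjustment over the 10 pairs of genes. Without AU8004 and IL16441, the strains farthest from the Cyp2b9 median, r was 0.61 (permutation p = 1e-05, adjusted 0.0001), and without the off-strain arrays it was 0.64 (adjusted permutation p = 0.0001). Most strains sit at the floor of Cyp2b13, with a Control mean below the typical array median in 40 of 45. Over these 40 strains r was 0.46 (permutation p = 0.00295) and rho 0.50 (permutation p = 0.00114), neither adjusted. Within scan dates r was 0.51 in scan 1 (45 strains), 0.80 in scan 2 (16), 0.79 in scan 3 (16) and 0.75 in scan 4 (9). Without the off-strain arrays it was 0.53 in scan 1 (40 strains), 0.47 in scan 2, 0.82 in scan 3 and 0.75 in scan 4.

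**Figure D2:**
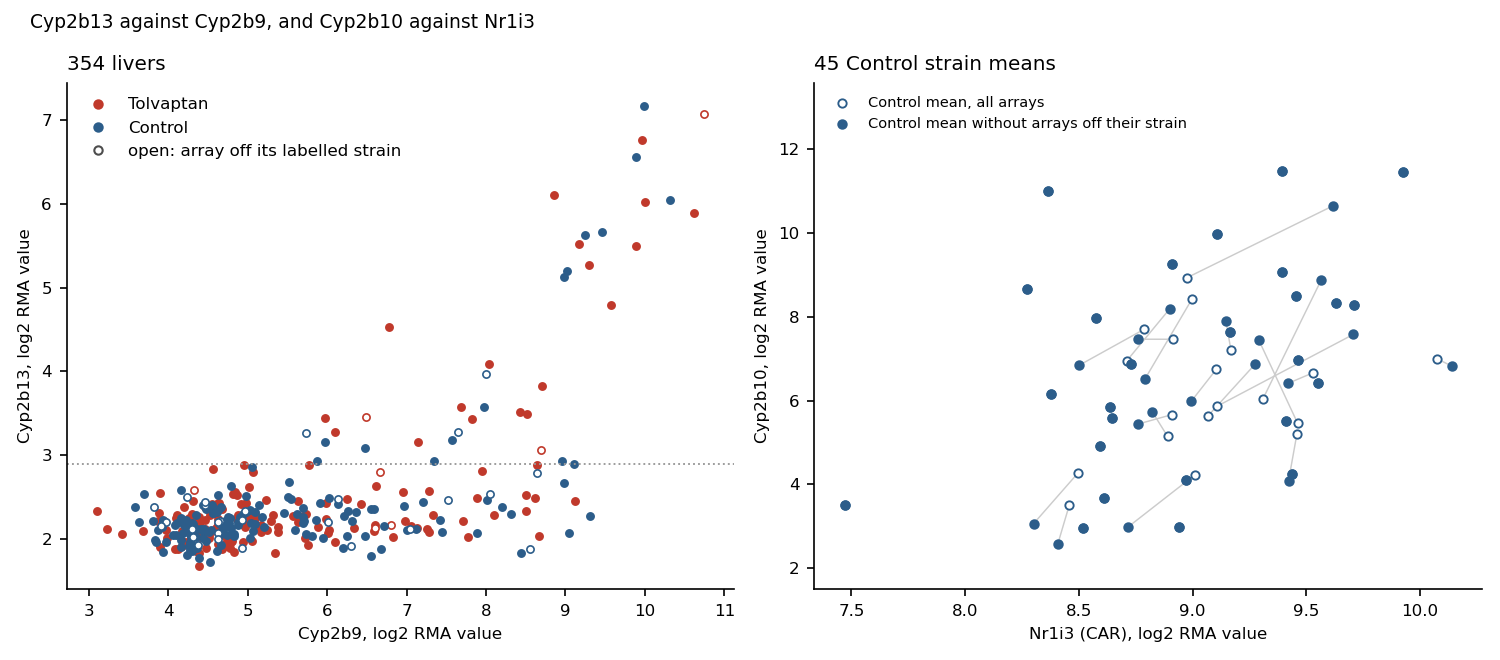
Left, Cyp2b13 against Cyp2b9 in 354 single livers, with Tolvaptan and Control animals in separate colours, arrays off their labelled strain open and the typical array median dotted; every liver with Cyp2b13 above 5 has Cyp2b9 of 8.85 or more. Right, Cyp2b10 against Nr1i3 in 45 Control strain means, open with all arrays and filled without arrays off their strain, joined by grey lines; r is 0.33 for the open points and 0.43 for the filled ones. All values are log2 RMA.

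Nr1i3, which encodes CAR, was lit in every liver and spanned 2.61 log2 units between Control strain means (6.09-fold, rank 711). IL16441 was highest, with 10.00, 10.12, 9.89 and 10.29 in Control livers (10.08 ± 0.17, SD, n = 4), followed by AU8048 at 9.83 to 9.99 and AU8027 at 9.39 to 9.93. OR5612 was lowest, at 7.33, 7.78, 7.41 and 7.37 (7.47 ± 0.21, SD, n = 4). OR3032, next above it, ranged from 7.83 to 8.63, and AU8052 from 8.30 to 8.44. The gap of 0.80 below OR3032 set OR5612 apart by more than 2 SE (SE 0.32), the only such gap among 44. Strain accounted for 61.0% of the Control variance, and for 74.2% without the off-strain arrays.

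Nr1i2, which encodes PXR, varied little. Its Control strain means spanned 1.2 log2 units (2.29-fold, rank 5605), near the 1.05 of the median gene, and strain accounted for 16.9% of its Control variance, or 36.3% without the off-strain arrays. IL16513 was highest, at 8.81, 9.17, 8.79 and 8.87 (8.91 ± 0.18, SD, n = 4), followed by AU8048 and AU8018 with means of 8.61 and 8.55. IL16188 was lowest with a mean of 7.71 and a range of 7.12 to 8.15, then OR3393 with 7.86 and OR3609 with 7.90. The second PXR probe set correlated at 0.92 with the brighter one used for the gene.

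**Figure D3:**
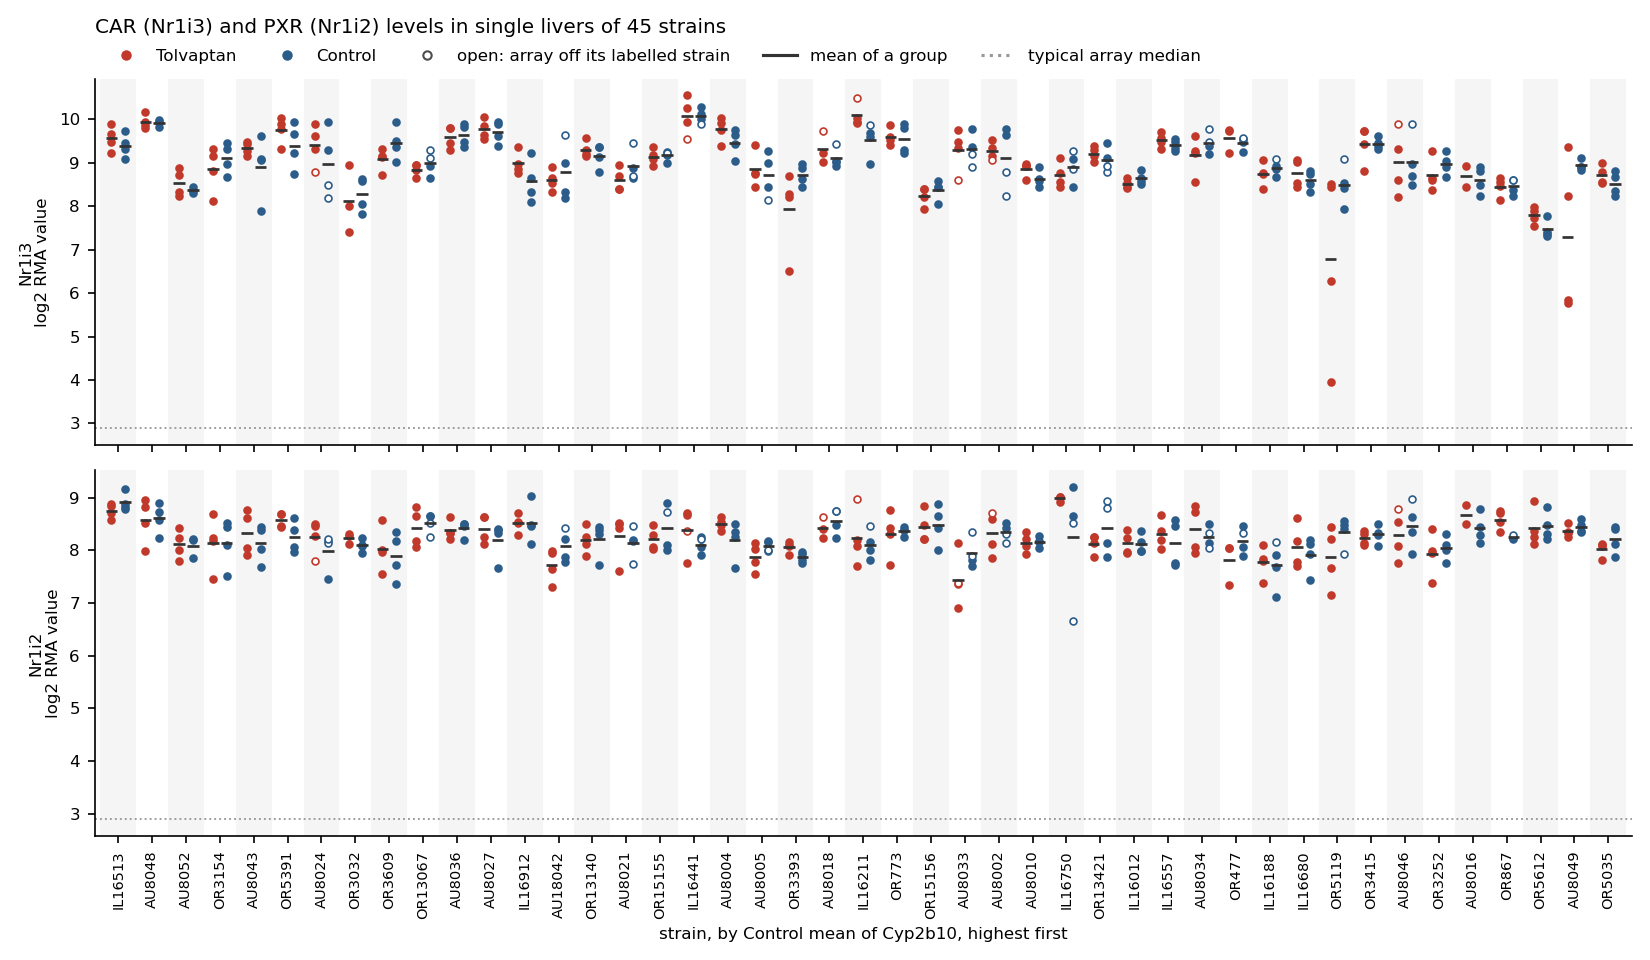
Log2 RMA values of Nr1i3 (top) and Nr1i2 (bottom) in single livers, with strains in the same order as in the plot of Cyp2b levels, Tolvaptan animals left of Control animals, bars for group means and open points for arrays off their labelled strain. Nr1i3 is lowest among Control means in OR5612 (7.47), and 5 single Tolvaptan livers fall below every Control liver.

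The differences between Control strains passed the limma F test for all 5 genes, with adjusted p of 2.26e-26 for Cyp2b10, 9.91e-17 for Cyp2b13, 7.42e-15 for Cyp2b9, 4.67e-14 for Nr1i3 and 0.00104 for Nr1i2. This call was common: 74.9% of the 14125 genes passed it, so 5 of 5 is no mark of these genes, and the width of the ranges is the more telling description. Leaving out replicate 3 of every group ended the Nr1i2 call (adjusted p = 0.0661). It ended no other call of the 5.

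Strains kept their place under tolvaptan. Tolvaptan and Control strain means correlated at r = 0.88 for Cyp2b10, 0.84 for Cyp2b13, 0.81 for Cyp2b9, 0.78 for Nr1i3 and 0.61 for Nr1i2 over the 45 strains. Spearman's rho was 0.86, 0.63, 0.84, 0.87 and 0.66 in the same order, and each r and rho had a permutation p of 1e-05, the smallest possible, also after adjustment over the 5 genes. Without the 2 strains farthest from the median of the Tolvaptan means, r lay between 0.65 and 0.89, with an adjusted permutation p of at most 2e-05.

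Control animals of the same strain scanned on different dates gave a second check. The scan 1 Control animal and the mean of the later Control animals correlated over 45 strains at r = 0.62 for Cyp2b10 and rho = 0.63 (adjusted permutation p = 2.5e-05 for both). For Nr1i3 r was 0.73 and rho 0.66 (adjusted permutation p = 2.5e-05 for both), and for Cyp2b9 r was 0.55 (adjusted permutation p = 0.00025) and rho 0.51 (0.00065). Cyp2b13 had r = 0.72 (adjusted permutation p = 0.00258) and rho = 0.28 (0.0771), and without the 2 farthest strains r fell to 0.01, so this relation rests on those strains. Cyp2b13 without the off-strain arrays had r = 0.79 (adjusted permutation p = 0.00076) and rho = 0.42 (0.00739), and r was 0.14 without the 2 farthest strains as well (adjusted 0.341). For Nr1i2 r was 0.21 and rho 0.26, with adjusted permutation p of 0.166 and 0.0793, and without the 2 farthest strains r was 0.38 (adjusted 0.0143). Over the 40 strains left without the off-strain arrays, r was 0.84 for Nr1i3, 0.75 for Cyp2b10 and 0.58 for Nr1i2, with adjusted permutation p of at most 0.000175.

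CAR mRNA and its target Cyp2b10 correlated weakly over strains. Their Control strain means correlated at r = 0.33 (permutation p = 0.0271, adjusted over 10 pairs 0.136) and rho = 0.29 (permutation p = 0.0562, adjusted 0.281). Without the off-strain arrays r was 0.43 (adjusted permutation p = 0.0167) and rho 0.41 (adjusted 0.0303). Without IL16513 and AU8048 as well, r was 0.37 (adjusted permutation p = 0.0765), a small shift in r that ended the call. Within scan dates r with all arrays was 0.31 in scan 1, 0.25 in scan 2, 0.65 in scan 3 and 0.13 in scan 4, and without the off-strain arrays it was 0.24 in scan 1, 0.56 in scan 2, 0.67 in scan 3 and 0.13 in scan 4. AU8052 had the third highest Cyp2b10 mean, 11.00, and the third lowest Nr1i3 mean, 8.36.

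Of the other 8 pairs of these genes, 0 passed with all arrays, with adjusted permutation p from 0.194 to 0.993. Cyp2b10 and Cyp2b9, members of 1 gene cluster, correlated at -0.02 over strains (rho = -0.01), and Cyp2b10 and Cyp2b13 at -0.08 (rho = 0.06). Cyp2b9 and Nr1i3 correlated at 0.29 (rho = 0.18, adjusted permutation p = 0.194), and Cyp2b10 and Nr1i2 at 0.10 (rho = -0.05). Deviations of single animals from their group means correlated between Nr1i3 and Cyp2b10 at 0.12 over all arrays and at -0.13 over the 320 on their strain.

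Genes whose Control strain means ran most like each member were picked by Pearson r over the 45 strains, as a description. For Cyp2b10 they were Ddit4 (0.69), a stress-induced inhibitor of mTORC1 signalling, the folate carrier Slc19a1 (0.68), the sodium pump subunit Atp1b1 (0.67), Fbxo31 (0.62) and Coa6 (0.62). For Nr1i3 they were the interferon-inducible gene Ifi205 (0.70), the cytochromes Cyp2c29 (0.54) and Cyp2c50 (0.54), the sulfotransferase Sult1a1 (0.50) and Psen2 (0.49). After Cyp2b13, Cyp2b9 ran most like Gm15408 (0.55), the peroxisomal transporter Abcd2 (0.54), Stambpl1 (0.54) and Rasl11b (0.53). After Cyp2b9, Cyp2b13 ran most like Tnfsf10 (0.59), 5430435K18Rik (0.58), the drug exporter Abcb1a (0.57) and Zpbp (0.55). For Nr1i2 they were Zfp768 (0.61), Bsg (0.57), Nop2 (0.56), Cdk18 (0.56) and Cdc42ep1 (0.53). These are the highest of 14125 values each, and over Tolvaptan strain means the r of 5430435K18Rik and Zpbp with Cyp2b13 was 0.03 for both.

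Averaged over the 45 strains, none of the 5 genes passed the test for a tolvaptan change. Over all genes 70 of 14125 passed (0.496%), and against so small a share 0 of 5 is no result about these genes. Cyp2b10 averaged 7.04 ± 2.43 in 175 Tolvaptan livers and 6.63 ± 2.61 in 179 Control livers (SD over animals of all strains). Its change was 0.35 log2 units (SE 0.17, limma adjusted p = 0.470), with a positive change in 28 of 45 strains. The other Cyp2b10 probe set gave 0.37 (SE 0.17, adjusted p = 0.476). By scan date the Cyp2b10 change was -0.09 in scan 1, 0.44 in scan 2, 0.60 in scan 3, 0.08 in scan 4 and 1.36 in scan 5, each with an adjusted p above 0.5. Without the off-strain arrays it was 0.30 (SE 0.14, adjusted p = 0.40).

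The other 4 averages were smaller. Cyp2b9 was at 5.60 ± 1.65 in Tolvaptan and 5.49 ± 1.57 in Control livers (SD), a change of 0.08 (SE 0.12, adjusted p = 0.888). Cyp2b13 was at 2.50 ± 0.91 in Tolvaptan and 2.40 ± 0.79 in Control livers, with a change of 0.09 (SE 0.06, adjusted p = 0.660). For Nr1i3 the levels were 8.98 ± 0.84 in Tolvaptan and 9.02 ± 0.58 in Control livers, with a change of -0.04 (SE 0.05, adjusted p = 0.859). For Nr1i2 they were 8.25 ± 0.40 in Tolvaptan and 8.24 ± 0.37 in Control livers, with a change of 0.01 (SE 0.03, adjusted p = 0.958). The change was positive in 24 strains for Cyp2b9, 24 for Cyp2b13, 25 for Nr1i3 and 21 for Nr1i2.

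A test of whether the tolvaptan change differed between strains also passed for none of the 5 genes. It passed for 3 of 14125 genes (0.0212%). Nr1i3 had the lowest adjusted p of the 5, at 0.35, followed by Cyp2b13 at 0.837, Nr1i2 at 0.891, Cyp2b9 at 0.917 and Cyp2b10 at 0.959.

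**Figure D4:**
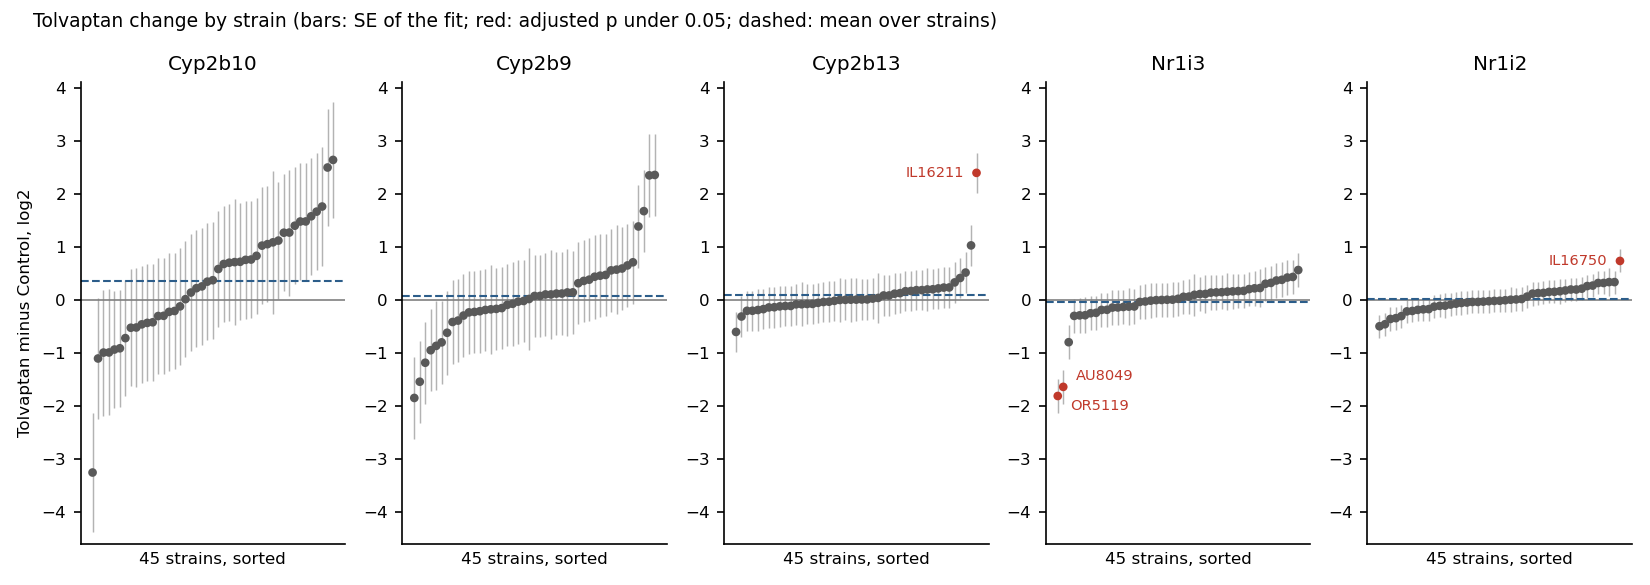
Tolvaptan minus Control in log2 units for each of 45 strains, sorted within each gene, with the SE of the fit as bars, the mean over strains dashed and changes with an adjusted p under 0.05 in red with their strain. Cyp2b10 runs from -3.26 to 2.64 with 0 strains called, whereas 2 strains stand below the others in Nr1i3; the calls in IL16211 and IL16750 ended without the arrays off their strain.

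In single strains, 4 changes passed over the 5 genes, where 0.281% of all 635625 gene and strain pairs passed. The falls among these called changes were both in Nr1i3. In OR5119 the Tolvaptan livers held 8.44, 8.51, 6.27 and 3.96 of Nr1i3, against 8.42, 7.94, 8.54 and 9.09 in Control livers, the last of these from an array off its strain. Only 2 of the 4 Tolvaptan livers were low, and the groups overlapped. The means were 6.80 ± 2.16 in Tolvaptan and 8.50 ± 0.47 in Control livers (SD, n = 4 each), and the change after adjustment for scan date was -1.81 (SE 0.33, adjusted p = 0.000105). In this strain 1.9% of genes passed. Without the off-strain arrays the change was -1.55 (adjusted p = 0.00281), and without the lowest Tolvaptan animal it was -0.86 (adjusted p = 0.281).

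In AU8049 the Tolvaptan livers held 5.84, 5.76, 9.36 and 8.23 of Nr1i3, against 8.83, 9.11, 8.91 and 8.91 in Control livers. Again 2 Tolvaptan livers were low while 1 lay above every Control liver. The means were 7.30 ± 1.79 in Tolvaptan and 8.94 ± 0.12 in Control livers (SD, n = 4 each), with a change of -1.64 (SE 0.32, adjusted p = 0.000199) in a strain where 5.4% of genes passed. None of the arrays was off its strain, and without either of the 2 low animals the adjusted p was 0.166 and 0.131. A fit on the arrays of 1 strain alone called neither change (adjusted p = 0.999 in OR5119 and 0.489 in AU8049).

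The 5 lowest Nr1i3 values of the series were all in Tolvaptan livers and lay below the lowest Control liver, which held 7.33. They were 3.96 and 6.27 in OR5119, 5.76 and 5.84 in AU8049 and 6.51 in OR3393, all from arrays on their strain and from 4 scan dates. Cyp2b10 was not low in these livers when set against the Control livers of their strain alone. It read 5.51 and 7.52 in the 2 OR5119 livers, against 2.31, 3.89, 2.99 and 7.92 in the Control livers of that strain, the last from the array off its strain. In AU8049 it read 6.26 and 4.55 in the 2 low livers, against 2.27 to 3.76 in Control livers, and in OR3393 it read 11.47, against 6.24 to 7.40. The livers were singled out after their values were seen, and no test was made.

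In both strains the ranges of the mean marker levels overlapped between Tolvaptan and Control livers, but in OR5119 the livers with low Nr1i3 stood apart. In OR5119 the mean of the hepatocyte markers was 11.5 to 11.7 in Tolvaptan and 11.6 to 11.9 in Control livers, and that of the other-cell markers 4.32 to 4.75 in Tolvaptan and 4.58 to 4.83 in Control livers. The 2 OR5119 livers with low Nr1i3 had other-cell means of 4.37 and 4.32, below every Control liver, and the other 2 Tolvaptan livers had 4.75 and 4.62, within the Control range. In AU8049 the hepatocyte mean was 11.7 to 11.8 in Tolvaptan and 11.6 to 11.8 in Control livers, and the other-cell mean 4.48 to 4.71 in Tolvaptan and 4.55 to 4.73 in Control livers. Of the 13 other-cell markers, only 1 passed in OR5119, the sinusoidal endothelial receptor Stab2, which fell by 1.23 (limma adjusted p = 0.000443). Pecam1, also an endothelial marker, went the other way, by 0.46, and did not pass (limma adjusted p = 0.559). The part of these marker levels in the Nr1i3 values was not tested.

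Cyp2b13 rose in IL16211 when all arrays were used. The Tolvaptan livers held 5.50, 7.07, 3.43 and 2.81, against 2.41, 1.88, 2.01 and 2.93 in Control livers, so the groups overlapped. The change was 2.40 (SE 0.38, adjusted p = 1.99e-05), and Cyp2b13 was the 1 gene of 14125 (0.00708%) to pass in this strain. The highest Tolvaptan and the lowest Control value came from arrays off their strain. Without off-strain arrays the change was 1.46 and did not pass (adjusted p = 0.587). Cyp2b9 in the same livers was at 9.89, 10.74, 7.83 and 7.95 in Tolvaptan, against 5.14, 8.55, 5.95 and 7.35 in Control, a change of 2.36 (SE 0.78, adjusted p = 0.626).

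In IL16211 the mean of the female-biased genes other than Cyp2b9 and Cyp2b13 was 4.54, 5.19, 4.29 and 4.22 in Tolvaptan livers and 3.66, 4.94, 4.21 and 4.03 in Control livers. The mean of 16 male-biased genes was 8.25, 7.79, 8.86 and 8.51 in Tolvaptan livers and 9.52, 8.62, 9.41 and 8.61 in Control livers. In the male-biased list 3 of the 4 Tolvaptan livers lay below every Control liver, and the other one lay above 2 of them. The Tolvaptan liver at 5.19 and 7.79 and the Control liver at 4.94 and 8.62 were the arrays off their strain. Without these, the Tolvaptan livers at 8.25 and 8.51 lay below every Control liver, and that at 8.86 lay above the Control liver at 8.61. The part of these shifts in the Cyp2b13 value was not tested.

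Nr1i2 passed in IL16750, where the Tolvaptan livers held 9.0, 9.02, 9.02 and 8.92 and the Control livers 8.51, 9.20, 8.65 and 6.66. The change of 0.73 (SE 0.22, adjusted p = 0.0391) came in a strain where 2.58% of genes passed. The Control values of 8.51 and 6.66 were from arrays off their strain, and without these the change was 0.09 (adjusted p = 0.948).

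**Figure D5:**
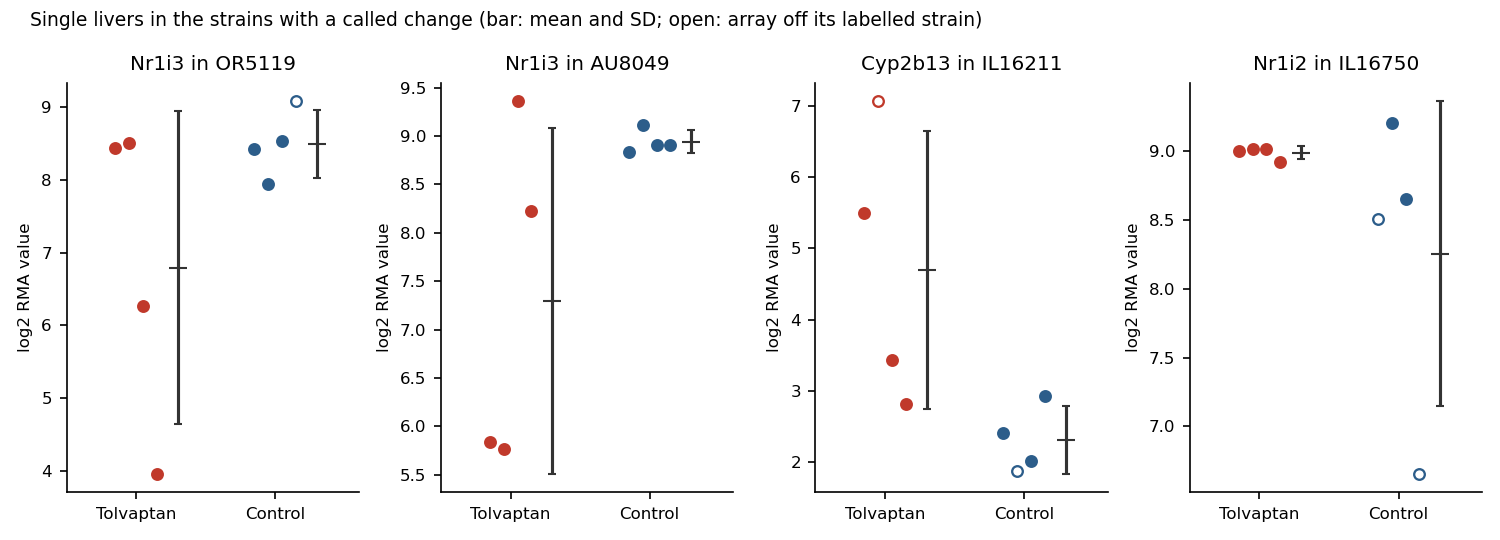
Log2 RMA values of single livers in the 4 strain and gene pairs with a called change, Tolvaptan left of Control, with mean and SD beside the points and open points for arrays off their labelled strain. The Nr1i3 falls rest on 2 of 4 Tolvaptan livers in OR5119 and in AU8049, and the 6.66 and 7.07 that set the calls in IL16750 and IL16211 are open points.

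No strain passed for Cyp2b10 or Cyp2b9. The largest positive Cyp2b10 changes were 2.64 in AU8033 (adjusted p = 0.466), 2.50 in OR3393 (0.614) and 1.76 in OR773 (0.759), each with an SE of about 1.1. Leaving out the off-strain arrays, 3 of which were in AU8033, gave 1.2 in AU8033, 2.50 in OR3393 and 1.72 in OR773. The largest were then 2.50 in OR3393, 2.17 in AU8018 and 1.93 in OR5119 (adjusted p = 0.371), ahead of OR773. The OR5119 change with all arrays was 0.75 (adjusted p = 0.866). In OR3393 the Tolvaptan livers held 7.52, 11.11, 11.47 and 7.35 of Cyp2b10, against 7.10, 7.40, 6.24 and 6.73 in Control livers, so 2 of 4 were far above all others. The most negative was OR13067 at -3.26 (adjusted p = 0.129), where Tolvaptan livers held 5.04, 4.13, 6.03 and 5.16, against 10.86, 9.88, 5.53 and 7.49 in Control livers. The 2 high Control values there were arrays off their strain, and without them the change was -1.32 (adjusted p = 0.910), behind the -1.87 of AU8024 (adjusted p = 0.493). With all arrays OR3609 followed at -1.11 and AU8052 at -1.0.

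OR5035, the strain with the lowest Cyp2b10, was the only 1 of 45 whose groups did not overlap in that gene, with 5.38, 3.69, 4.44 and 4.98 in Tolvaptan livers, against 2.36, 2.85, 3.41 and 3.21 in Control livers. Its change of 1.66 did not pass (SE 1.1, adjusted p = 0.987), in a fit that pools the spread over all strains, and non-overlap stands for no call here. Cyp2b9, Nr1i3 and Nr1i2 also had 1 strain of 45 without overlap each, and Cyp2b13 had 0. The share of such strains over all genes was not computed, so these counts are no result about the genes or about OR5035. Cyp2b9 changed most in IL16211, then by 2.35 in OR13421 (adjusted p = 0.248) and by 1.67 in AU8024 (0.287). In each of these 2 strains 2 Control arrays were off their strain, and without the off-strain arrays the changes were 0.96 in OR13421 and 0.73 in AU8024. Its most negative changes were -1.85 in IL16441, -1.55 in AU8033 and -1.19 in IL16680, with adjusted p of 0.574 or more. Without the off-strain arrays the most negative were -2.49 in IL16441, -1.64 in AU8033 and -1.59 in AU8002, and none passed.

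For Cyp2b13 the next largest changes were 1.03 in OR5035 and 0.51 in AU8010, and the most negative -0.61 in AU8033, -0.31 in IL16680 and -0.21 in OR5391. The AU8033 change in Cyp2b13 was -0.09 without the off-strain arrays. For Nr1i3 the next after the 2 called falls was -0.80 in OR3393 (adjusted p = 0.529), and the most positive were 0.56 in IL16211, 0.43 in AU8024 and 0.42 in AU8043. The AU8024 change in Nr1i3 turned to -0.02 without the off-strain arrays. For Nr1i2 the most negative were -0.50 in AU8033, -0.46 in OR5119 and -0.36 in OR477, and the most positive after IL16750 was 0.33 in OR867 and in AU8016. With the off-strain arrays left out the Nr1i2 change was -0.31 in AU8033 and 0.57 in AU8024, and OR5119, at -0.52, became the most negative. None of these passed.

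Other genes of the pathway were read in lists. Of 33 further CAR and PXR target genes tested, 1 rose and 0 fell, against 0.496% of all genes, with 23 of 33 changes positive and a median change of 0.03, against 0.00027 over all genes. The 1 that rose was Alas1, which catalyses the limiting step of heme synthesis, at 11.03 in Tolvaptan and 10.69 in Control livers, a change of 0.35 (SE 0.07, adjusted p = 0.00376). Of 15 microsomal electron donors and heme enzymes, 2 rose and 0 fell, against the same 0.496% of all genes. They were Alas1 again and Blvrb, a biliverdin reductase, which rose by 0.17 (SE 0.04, adjusted p = 0.00563). Among the 22 tested partners and upstream regulators of the receptors, 0 passed, and the lowest p belonged to Gnmt, a methyltransferase, with a change of -0.05 (adjusted p = 0.109), and the AMP kinase subunit Prkaa1, with -0.07 (adjusted p = 0.483).

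The lists of sex-biased genes held 0 called averages, against 0.496% of all genes. Of 17 female-biased genes, Cyp2b9 and Cyp2b13 among them, 12 had a positive change, with a median of 0.04, and the lowest p belonged to the sulfotransferase Sult3a1 (0.28, adjusted p = 0.551) and the steroid hydroxylase Cyp17a1 (-0.24, adjusted p = 0.605). Of 16 male-biased genes 5 had a positive change, with a median of -0.03, and the lowest p belonged to Hsd3b5 (-0.40, adjusted p = 0.248) and Cyp2u1 (-0.11, adjusted p = 0.426). Of 3 other Cyp2 genes tested, 0 passed, with Cyp2f2 at -0.06 (adjusted p = 0.148) and Cyp2g1 at 0.27 (adjusted p = 0.171). Against the same 0.496%, 0 of 9 hepatocyte markers passed and 1 of 13 markers of other cells fell, Stab2, by 0.19 (SE 0.04, adjusted p = 0.00104).

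Over Control strains the lists differed in how widely their genes varied. The 33 target genes had a median range of 2.13 log2 units, against 1.05 over all genes, and 32 of 33 passed the test of strain differences, against 74.9% of all genes. The widest were the glutathione transferase Gstt1 at 5.48 and the anion transporter Slco1a4 at 5.42. The female-biased genes had a median range of 3.39, with Sult3a1 at 10.68, the widest of all 14125 genes, and Cyp17a1 at 6.01, and 15 of 17 passed. The male-biased genes had a median of 2.55, with Moxd1 at 7.88 and Hsd3b5 at 5.70, and 15 of 16 passed. The partners and regulators, at a median of 1.15, and the electron donors and heme enzymes, also at 1.15, lay near the array as a whole, with Prkaa2 (2.73) and Hsp90aa1 (2.25), and Alas1 (2.44) and Uros (2.33), as their widest members. The 3 other Cyp2 genes had a median of 2.03, with Cyp2g1 at 3.95. The markers of other cells had a median of 1.62, and the hepatocyte markers, at 0.61, lay below the array as a whole.

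The strains with a called Nr1i3 fall were OR5119 and AU8049. Target genes passed in a larger share than all genes in OR5119 and in a smaller share in AU8049. Over all genes in OR5119, 140 rose and 129 fell. Whether these shares differed from those of all genes was not tested. In OR5119, where 1.9% of all genes passed, 3 of 33 target genes fell and 0 rose: Abcc3, a hepatic efflux pump, by 1.58 (adjusted p = 0.00110), Cyp3a25 by 1.33 (adjusted p = 0.00350) and Ugt1a9 by 0.51 (adjusted p = 0.0280). In AU8049, where 5.4% passed, 0 fell and 1 rose, the stress gene Gadd45b, by 3.50 (adjusted p = 0.00131), while among the partners the bile acid receptor Nr1h4 fell by 0.69 (adjusted p = 0.00797) and Ppara by 0.82 (adjusted p = 0.0402). Whether the 2 strains differed in these genes was not tested.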

How the data were processed

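The deposited values are log2 expression values, which the authors made with RMA in Affymetrix Expression Console, per the submitters' processing notes; versions and build are not given in the sources used here. RMA subtracts background and gives all arrays the same distribution, so a shift shared by most genes would not show. Arrays were 1-colour Affymetrix HT_MG-430 PM, with 42597 probe sets, of which 27691 carried 1 current symbol, 493 several and 14376 none. A gene was its probe set of highest mean, kept if above the array median on 4 or more arrays. Mean per strain and treatment plus scan date (6) was fitted with limma 3.58.1 in R 4.3.3 (259 residual degrees of freedom), and p-values were adjusted by Benjamini-Hochberg over 14125 genes, within a strain for single strains, with a threshold of 0.05. The fit and the correlation test were tested on simulated data. Depth does not apply to arrays; the number of animals limits precision. Arrays off their strain correlated under 0.5 with it; the 300 best probe sets in place of 500 marked the same number. Lists named at most 4 called genes or otherwise the 2 of lowest p, strains were the 3 highest and 3 lowest, and 5 most alike genes were named. Members and lists were chosen with earlier results of these data known. No probe set under the symbol Por was used here.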

Additional observations from a re-analysis of the deposited data

Results flagged for a closer look

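Among the 5 genes, 2 single Control livers stood far from the other animals of their group, by Dixon's test at 95%. In IL16680 the Cyp2b9 value of Control animal 421 was 9.04, while the other 3 Control livers lay between 4.27 and 5.05. In AU8048 the Cyp2b10 value of Control animal 334 was 9.75, while the other 3 lay between 11.93 and 12.13. Neither array was off its labelled strain. Groups of 4 were tested in the named strains of each gene, 81 in all, and chance flags about 1 in 20 groups.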

How the results depend on the processing

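Of 261 values recomputed under other settings, 224 kept direction and side of the threshold. No averaged change and no interaction of the 5 genes passed under any setting run. The averaged Nr1i2 change, 0.01, turned to -0.0021 as the mean of its probe sets, -0.015 in its other probe set and -0.014 in scans 2 to 6. Within scan 1 the Cyp2b10 change was -0.086. Within scan 2 the changes were -0.092 for Cyp2b9, -0.024 for Cyp2b13, 0.0022 for Nr1i3 and -0.079 for Nr1i2, and within scan 4 they were 0.089 for Nr1i3 and -0.014 for Nr1i2. In scan 6 just 1 strain, OR3415, held both treatments, so it gives no value. Leaving out 1 replicate number at a time gave 0.12 to 0.49 for Cyp2b10, and 0.12 came without replicate 3. It gave 0.04 to 0.11 for Cyp2b9, 0.08 to 0.12 for Cyp2b13, -0.05 to -0.03 for Nr1i3, and -0.017 to 0.024 for Nr1i2. The adjusted p of the Control strain differences in Nr1i2 then ran from 0.0029 to 0.066.

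With single animals of the strain left out, the Nr1i3 change was -2.33 to -1.12 in AU8049 and -2.35 to -0.86 in OR5119, the Cyp2b13 change 1.62 to 3.0 in IL16211 and the Nr1i2 change 0.23 to 1.04 in IL16750. The IL16211 call ended without the Tolvaptan liver at 7.07 (1.62, adjusted p = 0.112). The IL16750 call ended without the Control liver at 6.66 (0.23, adjusted p = 0.898) and without any 1 of the 4 Tolvaptan livers (adjusted p 0.055 to 0.115). Fits on 1 strain alone kept the sizes of 2.40 in IL16211, -1.64 in AU8049 and 0.73 in IL16750, gave -1.70 in OR5119, and called none, with adjusted p from 0.489 to 0.999; they have few degrees of freedom.

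Without off-strain arrays the change was 1.46 in IL16211 and 0.093 in IL16750, and the share of Control variance between strains was 50.8% for Cyp2b9, 78.3% for Cyp2b10, 53.0% for Cyp2b13, 74.2% for Nr1i3 and 36.3% for Nr1i2. Correlations over strains were then 0.43 for Cyp2b10 with Nr1i3, which passed, and, with the sign turned and not called, 0.10 for Cyp2b9 with Cyp2b10, -0.047 for Cyp2b10 with Nr1i2, 0.14 for Cyp2b13 with Nr1i2 and -0.075 for Nr1i3 with Nr1i2. The cause of these shifts was not tested.

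Over all genes, 70 averaged changes became 44 without off-strain arrays, 300 in the 26 strains without such arrays, 18 with strains as the unit, 170 in scans 2 to 6, 0 to 32 in single scans and 3 to 162 without 1 replicate. The 3 interactions became 1 to 21 without 1 replicate, 11 with every probe set fitted on its own and 26 without off-strain arrays. No paired analysis was possible because the animal numbers are shared by no 2 groups. Signal near the array median limits Cyp2b13.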
